A study of Homo sapiens with 3 samples.

Results

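Glucuronidation was described through 9 genes: UGP2 and UGDH, which make the sugar donor, and the transferase genes UGT1A1, UGT1A6, UGT1A8, UGT1A9, UGT1A10, UGT2B7 and UGT8. The genes were taken by name from the deposited table of 30923 genes, and all 9 are in it. RNA sequencing had been done on QBC-939, an established human cholangiocarcinoma (bile duct cancer) cell line with a genotype given as WT, in which either miR-182-5p or miR-183-5p was overexpressed, or a control called NC. There was 1 library in each of the 3 groups, with 61709874 counts for miR-182-5p, 67427313 for miR-183-5p and 64516706 for NC. The titles of both microRNA samples, but not of the NC sample, carry the ending "mim", and levels of either microRNA were not analysed here. The comparisons address which genes differ when either microRNA is overexpressed. Both use the same NC library.

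Glucuronidation is the attachment of glucuronic acid to bilirubin, bile acids, steroids, phenols and many drugs, which makes them soluble enough for export into bile or urine. UGP2 joins glucose 1-phosphate to UTP, giving UDP-glucose, and UGDH oxidises UDP-glucose to UDP-glucuronic acid. UDP-glucuronosyltransferases (UGTs) in the membrane of the endoplasmic reticulum then transfer the sugar. Bile duct epithelium, like liver and gut, lines the route by which conjugates leave the body. UGT8 belongs to the family by sequence but uses UDP-galactose, and makes galactosylceramide, a lipid of myelin and of some epithelia.

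The 9 genes were chosen with values of these libraries in view, so the levels and ratios below are a description. With 1 library per group no p-value between conditions can be given. Ratios are of CPM, the count scaled to library size, and the 95% intervals after them are exact Clopper-Pearson intervals that cover counting error only, since reads without molecular identifiers are not independent molecules. Levels of different genes are compared in the deposited FPKM, which is scaled to transcript length. A gene is called higher or lower where its CPM ratio is at least the inverse of 0.8 or at most 0.8. In 1 library or more, 13454 genes reached an FPKM of at least 1 (called measured here), 8 of the 9 genes among them. UGT2B7 was under it in every library, UGT1A8 reached it only with NC and UGT1A9 only with miR-183-5p.

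The mature microRNAs are shown because the libraries are defined by them. The sequences are those of RefSeq (GRCh38.p14), both from the minus strand of chromosome 7, at chr7:129770447-129770470 and chr7:129774967-129774988, and capitals mark the seed, bases 2 to 8, which pairs with messenger RNAs.
miR-182-5p: uUUGGCAAugguagaacucacacu
miR-183-5p: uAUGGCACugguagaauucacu
The sequences are identical at 18 of their first 22 positions and at 5 of the 7 seed positions, and the seeds are different.

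The UGT1A genes are 1 locus on the plus strand of chromosome 2. Each UGT1A messenger RNA joins its own exon 1, which encodes the part of the enzyme that binds the acceptor molecule, to the same following exons, which encode the part that binds UDP-glucuronic acid. Exons 2 to 4, at chr2:233767034-233767165, chr2:233767849-233767936 and chr2:233768220-233768439, are 440 bases together in the GENCODE 29 annotation. The junction between exon 1 and exon 2 is shown for 1 transcript of each of the 5 genes, since a read across it is what tells the messenger RNAs apart near the shared exons. The last 30 bases of exon 1 are in lower case, and capitals mark the first 20 bases of exon 2 (chr2:233767034-233767053).
UGT1A1: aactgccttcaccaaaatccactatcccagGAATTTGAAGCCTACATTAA
UGT1A6: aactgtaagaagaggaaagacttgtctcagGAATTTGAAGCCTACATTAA
UGT1A8: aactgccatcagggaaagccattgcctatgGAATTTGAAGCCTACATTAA
UGT1A9: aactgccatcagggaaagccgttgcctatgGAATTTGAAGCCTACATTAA
UGT1A10: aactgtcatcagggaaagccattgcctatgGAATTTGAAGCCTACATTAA
Aligned over its whole length, exon 1 of UGT1A8 is identical to that of UGT1A10 at 93.8% of alignment columns and to that of UGT1A9 at 91.0%, and UGT1A9 to UGT1A10 at 90.4%. Every pair that includes UGT1A1 or UGT1A6 is identical at 50.9% to 55.0%. In the transcripts shown, 59.7% of the bases lie outside exon 1 for UGT1A6, 61.9% for UGT1A8, 61.2% for UGT1A9, 61.6% for UGT1A10 and 74.5% for UGT1A1. How the authors divided reads from the shared exons among the rows is not given in the sources used here, so the value of a single UGT1A row is uncertain and the 5 rows are also given as a sum. The UGT1A1 row lists 1 transcript only, ENST00000360418, which has exon 1 of UGT1A1 but another last exon (chr2:233769531-233771615).

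UGP2 (ENSG00000169764, chr2:63840940-63891562, plus strand) had 5085 counts with miR-182-5p, 6317 with miR-183-5p and 6518 with NC. Its FPKM was 10.7 with miR-182-5p, 12.2 with miR-183-5p and 12.9 with NC. The miR-182-5p library was the lowest, and the miR-183-5p library lay nearer to NC. The CPM ratio to NC was 0.816 (0.786 to 0.846) with miR-182-5p and 0.927 (0.896 to 0.960) with miR-183-5p, and miR-182-5p over miR-183-5p was 0.880 (0.847 to 0.913). UGP2 is thus just outside the threshold for a lower call with miR-182-5p. It passes with TMM scaling, at a ratio of 0.783. For this and every gene below, fewer cells with the transcript and less of it per cell cannot be told apart in bulk RNA.

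UGDH (ENSG00000109814, chr4:39498755-39528233, minus strand) was lower in both microRNA libraries. It had 6171 counts (21.0 FPKM) with miR-182-5p, 6713 counts (20.9 FPKM) with miR-183-5p and 9120 counts (29.2 FPKM) with NC. The microRNA libraries had nearly the same level, and the NC library stood above them. The CPM ratio to NC was 0.707 (0.685 to 0.731) with miR-182-5p and 0.704 (0.682 to 0.727) with miR-183-5p. The interval of miR-182-5p over miR-183-5p, at 1.004 (0.970 to 1.04), includes 1. Of all measured genes, 5.35% had a lower ratio than UGDH with miR-182-5p and 3.56% with miR-183-5p. UGDH-AS1, a gene on the opposite strand whose span overlaps UGDH, had 62 counts with miR-182-5p, 64 with miR-183-5p and 100 with NC. Since it is not stated whether counting used strand, reads of the pair cannot be told apart, and its counts are about 1% of those of UGDH.

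**Figure D1:**
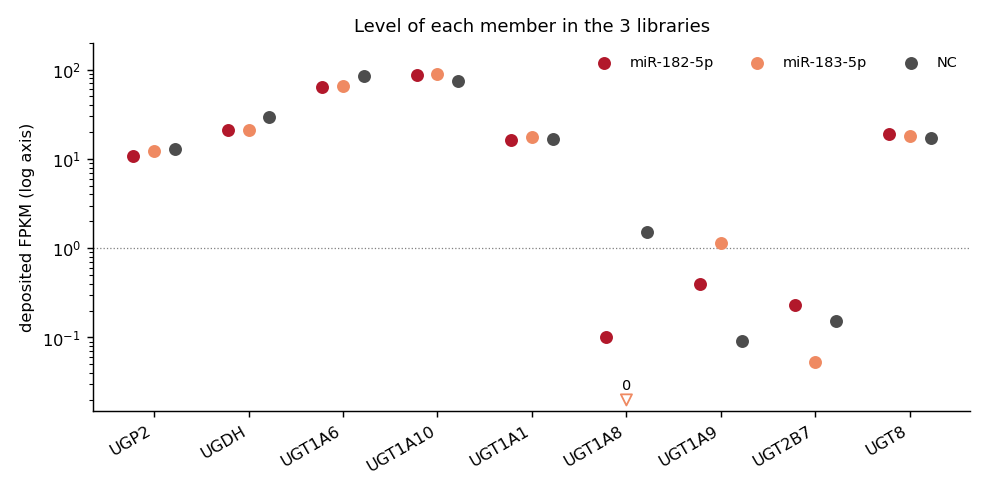
Deposited FPKM (log axis) of the 9 genes in the 3 libraries, 1 point per library, with miR-182-5p left, miR-183-5p in the middle and NC right; the dotted line is an FPKM of 1 and the open triangle is a value of 0. UGDH and UGT1A6 had their highest point with NC, and UGT1A8, UGT1A9 and UGT2B7 lay near or under an FPKM of 1.

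UGT1A6 (ENSG00000167165, chr2:233691607-233772668), which conjugates small planar phenols, had the most counts of the 9 genes. It had 24315 counts (64.5 FPKM) with miR-182-5p, 26738 (64.9 FPKM) with miR-183-5p and 33689 (84.3 FPKM) with NC. Its FPKM was above that of 97.3% of measured genes with miR-182-5p, 97.2% with miR-183-5p and 97.8% with NC. As for UGDH, the microRNA libraries were alike and the NC library was higher. The CPM ratio to NC was 0.755 (0.742 to 0.767) with miR-182-5p and 0.759 (0.747 to 0.772) with miR-183-5p, and miR-182-5p over miR-183-5p was 0.994 (0.976 to 1.01).

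UGT1A10 (ENSG00000242515, chr2:233636454-233773305), an enzyme of gut and bile duct that liver cells make little of, went the other way by a smaller amount. It had 20130 counts (87.2 FPKM) with miR-182-5p, 22263 (88.3 FPKM) with miR-183-5p and 18082 (73.9 FPKM) with NC. The NC library was here the lowest. The CPM ratio to NC was 1.16 (1.14 to 1.19) with miR-182-5p and 1.18 (1.16 to 1.20) with miR-183-5p, both under the threshold for a higher call. The ratio of UGT1A6 to UGT1A10 in FPKM was 0.740 with miR-182-5p and 0.735 with miR-183-5p, against 1.14 with NC, so by FPKM the higher row was UGT1A10 in both microRNA libraries and UGT1A6 in NC. In counts, UGT1A6 was the larger row in every library, at 1.21 times UGT1A10 with miR-182-5p and 1.20 times with miR-183-5p, against 1.86 times with NC. The order by level thus rests on the lengths behind the deposited FPKM, while the transcripts shown are 2479 bases (UGT1A6) and 2408 bases (UGT1A10).

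UGT1A1 (ENSG00000241635, chr2:233760270-233773300), known as the enzyme that conjugates bilirubin, had 5299 counts (16.3 FPKM) with miR-182-5p, 6275 (17.7 FPKM) with miR-183-5p and 5724 (16.6 FPKM) with NC. The NC library lay between the microRNA libraries. The CPM ratio to NC was 0.968 (0.932 to 1.005) with miR-182-5p and 1.049 (1.01 to 1.09) with miR-183-5p. Scaled to the counts outside mitochondrially encoded genes, the ratio with miR-182-5p was 1.006, on the other side of 1. The row does not list the standard UGT1A1 transcript, so it may not stand for the whole messenger RNA of the bilirubin enzyme. Its span, however, reaches past the end of the listed transcript at 233771615, so which exons its counts cover is uncertain.

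UGT1A8 and UGT1A9, the near copies of UGT1A10 in exon 1, had few counts. UGT1A8 (ENSG00000242366, chr2:233617645-233773310), an enzyme mainly of the gut, had 19 counts (0.102 FPKM) with miR-182-5p, 0 with miR-183-5p and 284 (1.52 FPKM) with NC. UGT1A9 (ENSG00000241119, chr2:233671898-233773300), an enzyme of liver and kidney, had 69 counts (0.396 FPKM) with miR-182-5p, 216 (1.14 FPKM) with miR-183-5p and 17 (0.0905 FPKM) with NC. The library with the most counts was NC for UGT1A8 and miR-183-5p for UGT1A9. UGT1A8 was 0.0699 times the NC level (0.0415 to 0.111) with miR-182-5p and at least 98.9-fold lower than NC with miR-183-5p, where the count of 0 was set at a floor of 3 counts. The wider 2-sided 95% interval of that ratio reaches up to 0.0125. UGT1A9 was 4.24 times the NC level (2.47 to 7.70) with miR-182-5p and 12.2 times (7.42 to 21.3) with miR-183-5p. With 1 added to the FPKM, which draws low rows towards a ratio of 1, UGT1A8 was 0.437 times NC with miR-182-5p and 0.397 times with miR-183-5p, and UGT1A9 was 1.28 and 1.96 times. Summed, the pair had 88 counts with miR-182-5p, 216 with miR-183-5p and 301 with NC, beside 18082 to 22263 counts a library in the UGT1A10 row.

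The 5 UGT1A rows summed to 49832 counts (807.5 CPM) with miR-182-5p, 55492 (823 CPM) with miR-183-5p and 57796 (896 CPM) with NC. The microRNA libraries were both below NC, by less than the threshold for a call. The sum was 0.901 times the NC level (0.891 to 0.912) with miR-182-5p and 0.919 times (0.908 to 0.929) with miR-183-5p, and miR-182-5p over miR-183-5p was 0.981 (0.969 to 0.993). UGT1A6 gave 48.8% of the summed counts with miR-182-5p (48.4 to 49.2) and 48.2% with miR-183-5p (47.8 to 48.6), against 58.3% with NC (57.9 to 58.7). UGT1A10 gave 40.4% (40.0 to 40.8) and 40.1% (39.7 to 40.5) in the miR-182-5p and miR-183-5p libraries, against 31.3% in NC (30.9 to 31.7). The remaining large row, UGT1A1, gave 10.6% with miR-182-5p, 11.3% with miR-183-5p and 9.90% with NC. UGT1A8 had 0 of 55492 UGT1A counts with miR-183-5p, which allows a share of up to 0.00541% at the floor of 3 counts, or 0.00665% as the upper end of the 2-sided 95% interval.

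**Figure D2:**
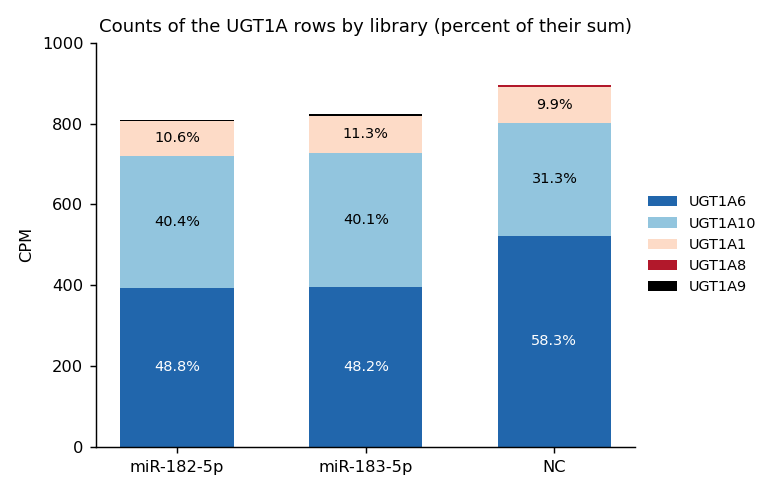
CPM of the 5 UGT1A rows stacked in each library (from the left miR-182-5p, then miR-183-5p, then NC), with the share of the UGT1A sum printed on the 3 large rows. The UGT1A6 segment is 48.8% and 48.2% of the column in the microRNA libraries and 58.3% in NC, while the columns as a whole differ less.

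The direction of the sum depends on the largest row. Without UGT1A6 the other 4 rows summed to 1.11 times the NC level (1.09 to 1.13) with miR-182-5p and 1.14 times (1.12 to 1.16) with miR-183-5p. Without UGT1A10, which was left out after its values had been seen, the ratios were 0.782 (0.770 to 0.794) and 0.801 (0.789 to 0.812). Adding the 6 UGT1A rows that are not among the 9 genes, which had 402 counts together with miR-182-5p, 534 with miR-183-5p and 530 with NC, left the ratios at 0.9004 and 0.919. The largest of these rows is UGT1A4, an enzyme that conjugates amines, with 211 counts with miR-182-5p, 371 with miR-183-5p and 331 with NC, and a ratio of 0.666 (0.558 to 0.794) with miR-182-5p and 1.07 (0.922 to 1.248) with miR-183-5p. UGT1A3 had 54 counts with miR-182-5p, 11 with miR-183-5p and 86 with NC, or 0.656 times NC (0.458 to 0.933) with miR-182-5p and 0.122 times (0.0589 to 0.230) with miR-183-5p.

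UGT2B7 (ENSG00000171234, chr4:69051363-69112972), which conjugates steroids, bile acids and morphine in liver, was close to absent in these cells. It had 39 counts (0.232 FPKM) with miR-182-5p, 10 (0.0527 FPKM) with miR-183-5p and 28 (0.153 FPKM) with NC. Against NC it was 1.46 times (0.873 to 2.46) with miR-182-5p, an interval that includes 1, and 0.342 times (0.148 to 0.725) with miR-183-5p. After 1 was added to the FPKM these ratios were 1.07 and 0.913, neither past the threshold.

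Of 13 UGT genes listed outside the UGT1A locus, 5 are in the table and 1 was measured, which is UGT8. UGT8 (ENSG00000174607, chr4:114598770-114678225), the galactosylceramide enzyme, had 6031 counts (18.8 FPKM) with miR-182-5p, 6269 (17.9 FPKM) with miR-183-5p and 5765 (17.0 FPKM) with NC. Both microRNA libraries were slightly above NC. The CPM ratio was 1.09 (1.05 to 1.13) with miR-182-5p and 1.04 (1.004 to 1.08) with miR-183-5p.

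**Figure D3:**
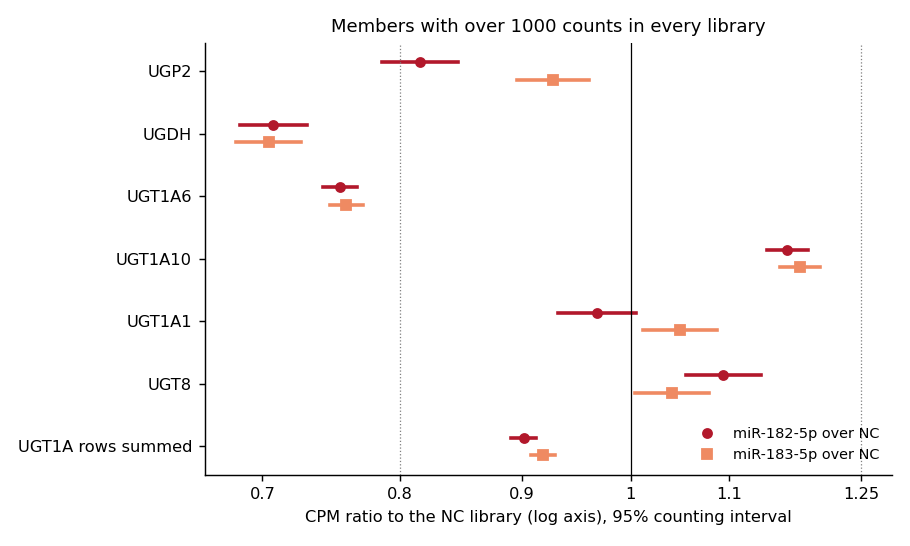
CPM ratio to the NC library (log axis) of the 6 genes with over 1000 counts in every library and of the UGT1A sum, with 95% counting intervals; circles are miR-182-5p over NC, squares below them miR-183-5p over NC, and dotted lines the call thresholds, 0.8 and its inverse. UGDH and UGT1A6 lie left of 0.8 in both comparisons, and UGT1A10 lies right of 1 in both.

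Of the 8 measured genes, 3 were called lower with miR-182-5p (UGDH, UGT1A6 and UGT1A8) and 1 higher (UGT1A9). Among all measured genes, 15.3% were called lower and 20.9% higher in that comparison. With miR-183-5p, 3 were called lower (UGDH, UGT1A6 and UGT1A8) and 1 higher (UGT1A9), where 7.86% of measured genes were called lower and 9.87% higher. Between the microRNAs, miR-182-5p over miR-183-5p, UGT1A9 was called lower and UGT1A8 higher, where 6.67% of measured genes were called lower and 14.6% higher. UGT1A8 rests there on 19 counts against 0. In all 3 comparisons UGT1A8 counts as measured only through NC and UGT1A9 only through miR-183-5p, the library where each was highest. Their calls thus give no support for a direction, and the other calls are UGDH and UGT1A6, lower in both comparisons with NC. UGT2B7, which was not measured, had ratios past the threshold in all 3 comparisons, and its interval for miR-182-5p over NC includes 1. The genes had been chosen from these comparisons, so the counts are not set against those shares. All 9 genes summed to 1088 CPM with miR-182-5p, 1109 CPM with miR-183-5p and 1228 CPM with NC.

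The order of the transferases by deposited FPKM in the microRNA libraries was UGT1A10, UGT1A6, then UGT8 and UGT1A1, and with NC UGT1A6, UGT1A10, UGT8 and UGT1A1. UGT8 and UGT1A1 were within 3 FPKM of each other in every library. UGT1A8, UGT1A9 and UGT2B7 came last, with UGT1A9 the highest of them in both microRNA libraries and UGT1A8 in NC.

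Seed sites were searched in the 3′ UTRs of the protein-coding transcripts that the rows list, as annotated in GENCODE 29 on GRCh38. Listed transcripts of other types, or without an annotated 3′ UTR, were not searched. No site of 7 bases complementary to bases 2 to 8 of miR-182-5p was found in any of the 9 genes, where 15.2% of the 10804 genes searched hold one. Those 10804 measured genes were searched in their longest annotated coding 3′ UTR, of median length 1330 bases. Several of the 9 genes have shorter ones in the listed transcripts, such as 335 bases in UGP2 and 251 in UGT2B7, so the shares are not a like comparison. For miR-183-5p, 12.3% of the 10804 genes hold such a site. Among the 9 genes the only one was in the last exon that the transcripts shown of UGT1A6, UGT1A8, UGT1A9 and UGT1A10 share, at chr2:233772794-233772800, base 235 of the 3′ UTR. The listed UGT1A1 transcript, which ends in another exon, does not hold it, nor do the other searched transcripts of UGT1A6 and UGT1A10. The span that the table gives for the UGT1A1 row, to 233773300, does cover the site. The span that the table gives for the UGT1A6 row ends at 233772668, before the site. The site is shown with its surroundings because it is 1 stretch of DNA carried by transcripts of 4 rows, whose ratios to NC with miR-183-5p differed: UGT1A6 was at 0.759 and UGT1A10 at 1.18. A shorter match of 6 bases to bases 2 to 7 was found for miR-183-5p at the start of the UGDH 3′ UTR (chr4:39500133-39500138) and for miR-182-5p in UGT8 (chr4:114677339-114677344). Capitals mark the matching bases.
UGT1A shared exon, miR-183-5p: aggatgacatGTGCCATttttcagagg
UGDH, miR-183-5p: agatTGCCATttttatttgt
UGT8, miR-182-5p: attacataggTGCCAAcatttaattc
A match describes the letters of the sequence and was not tested as a site of regulation. UGDH, which holds the short match to miR-183-5p and none to miR-182-5p, had the ratios to NC given above, 0.704 with miR-183-5p and 0.707 with miR-182-5p.

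Genes that resemble UGDH were found by the distance between pairs of log2 CPM ratios (miR-182-5p over NC, miR-183-5p over NC), over 8937 genes with a mean of at least 1000 counts, which describes 3 libraries only. The nearest were CHAMP1, CCDC12, GCLM, TIGAR and SLC35D2, at distances of 0.0397, 0.0443, 0.0512, 0.0533 and 0.0545. UGT1A6 was at rank 42, at 0.143. GCLM, a subunit of the first enzyme of glutathione synthesis, had 32.6 CPM with miR-182-5p, 33.5 with miR-183-5p and 46.0 with NC. The genes nearest to the UGT1A sum were CENPU, DSCC1, SUGT1, SHISA5 and PMPCB, with CPM ratios to NC of 0.8999 to 0.905 with miR-182-5p and 0.917 to 0.920 with miR-183-5p.

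Supply of UDP-sugars was described over 13 genes, UGP2 and UGDH among them, and all were measured. With miR-182-5p 3 were called lower (PGM2, SLC35D2 and UGDH) and 0 higher, with a median log2 CPM ratio of -0.12, against -0.01 over all measured genes. With miR-183-5p 4 were called lower (PGM1, PGM2, SLC35D2 and UGDH) and 0 higher, with a median of -0.07, against -0.03 over all measured genes. The shares of all measured genes called lower were 15.3% with miR-182-5p and 7.86% with miR-183-5p. PGM1, which interconverts glucose 6-phosphate and glucose 1-phosphate, had 70.4 CPM with miR-182-5p, 65.0 with miR-183-5p and 81.9 with NC. SLC35D2, a transporter of UDP-sugars in the Golgi apparatus, had 18.5 CPM with miR-182-5p, 18.7 with miR-183-5p and 27.1 with NC, and its ratios of 0.684 (0.635 to 0.738) and 0.692 (0.643 to 0.744) were near those of UGDH. HK1, the hexokinase that starts the route, had 120 CPM with miR-182-5p, 121 with miR-183-5p and 125 with NC, with ratios of 0.955 (0.926 to 0.986) and 0.966 (0.937 to 0.996). PGM2 and SLC35D2 are named because they were called.

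Other users of UDP-glucuronic acid or UDP-glucose were 12 genes, of which 11 were measured. Only UGGT2 was called against NC, higher in both comparisons, at 1.46 times the NC level (1.37 to 1.55) with miR-182-5p and 1.34 times (1.26 to 1.42) with miR-183-5p. Between the microRNAs, B3GAT1 was called higher, at 1.39 (1.28 to 1.52) for miR-182-5p over miR-183-5p. UGGT1, a relative of UGGT2 that tags misfolded glycoproteins with glucose, had 193 CPM with miR-182-5p, 179 with miR-183-5p and 162 with NC. CHPF, a chondroitin-synthesising enzyme, had 81.6 CPM with miR-182-5p, 80.7 with miR-183-5p and 76.2 with NC, and the glycogen synthase GYS1 had 56.2 CPM with miR-182-5p, 56.1 with miR-183-5p and 61.8 with NC. The median log2 ratio was 0.10 with miR-182-5p and -0.02 with miR-183-5p.

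Of 7 genes for cleavage and export of glucuronides, 6 were measured. ABCC3, which pumps glucuronides across the basolateral membrane of bile duct and liver cells, had 678 CPM with miR-182-5p, 534 with miR-183-5p and 476 with NC. It was the only one called, at 1.42 times the NC level (1.40 to 1.44) with miR-182-5p, and was 1.12 times NC (1.10 to 1.14) with miR-183-5p. GUSB, the lysosomal glucuronidase, had 93.0 CPM with miR-182-5p, 84.6 with miR-183-5p and 81.3 with NC, and the efflux pump ABCC1 had 123 CPM with miR-182-5p, 130.4 with miR-183-5p and 118 with NC. The list's median log2 ratio was 0.17 with miR-182-5p and 0.16 with miR-183-5p.

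Sulfotransferases and other conjugating enzymes were 17 genes, of which 10 were measured. With miR-182-5p 4 were called lower (GSTA1, GSTP1, SULT1A3 and SULT2B1) and 0 higher, and with miR-183-5p 0 lower and 2 higher (SULT1A2 and SULT1A3). SULT1A2 and SULT1A3 count as measured only through miR-183-5p, at an FPKM of 1.10 and 1.26. That is the library where they were highest, so their calls give no support for a direction. Of all measured genes, 15.3% were called lower and 20.9% higher with miR-182-5p, and 7.86% and 9.87% with miR-183-5p. The list's median log2 ratio was -0.23 with miR-182-5p and -0.14 with miR-183-5p, against -0.01 and -0.03 over all measured genes. GSTP1, a glutathione transferase, had 346 CPM with miR-182-5p, 398 with miR-183-5p and 433 with NC, and its ratio with miR-182-5p, 0.7996 (0.785 to 0.814), is at the threshold. The membrane glutathione transferase MGST1 had 111 CPM with either microRNA and 135 with NC. SULT1A3 was 0.583 times NC with miR-182-5p and 1.82 times with miR-183-5p on 77 counts with miR-182-5p, 263 with miR-183-5p and 138 with NC. It has a near-identical copy in the genome, so its row is uncertain.

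Regulators of UGT genes were 13 genes, of which 10 were measured. FOXA3 and KEAP1 were called lower in both comparisons. KEAP1, which holds the transcription factor NRF2 down, had 42.0 CPM with miR-182-5p, 44.2 with miR-183-5p and 55.8 with NC. NFE2L2, the gene of NRF2, had 98.2 CPM with miR-182-5p, 102 with miR-183-5p and 118 with NC, with ratios of 0.833 (0.805 to 0.861) and 0.867 (0.839 to 0.896). FOXA2 had 55.7 CPM with miR-182-5p, 54.0 with miR-183-5p and 56.5 with NC. The median log2 ratio was -0.01 with miR-182-5p and -0.08 with miR-183-5p.

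NRF2 is known to activate UGT1A6 and UGDH in several cell types. Other genes that NRF2 activates were a list of 18 with none of the 9 genes in it, of which 17 were measured. With miR-182-5p 15 were called lower and 0 higher, with a median log2 CPM ratio of -0.56, and with miR-183-5p 8 lower and 0 higher, with a median of -0.31. Over all measured genes 15.3% were called lower and 20.9% higher with miR-182-5p, with a median of -0.01, and 7.86% lower and 9.87% higher with miR-183-5p, with a median of -0.03. FTH1, the ferritin heavy chain, had 1359 CPM with miR-182-5p, 1806 with miR-183-5p and 2411 with NC, and FTL, the light chain, had 454 CPM with miR-182-5p, 610.3 with miR-183-5p and 784 with NC. AKR1B10, an aldo-keto reductase, had 228 CPM with miR-182-5p, 262 with miR-183-5p and 418 with NC. Past 2-fold with miR-182-5p were AKR1C1, at 0.458 times NC (0.442 to 0.474), and ALDH3A1, at 0.490 times (0.446 to 0.539). With miR-183-5p, where neither was past 2-fold, AKR1C1 was at 0.535 (0.518 to 0.553) and ALDH3A1 at 0.515 (0.470 to 0.563). FTH1, FTL and the AKR1C genes have close copies in the genome, so their rows are uncertain. That these genes were lower in these libraries was known when the list was chosen.

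**Figure D4:**
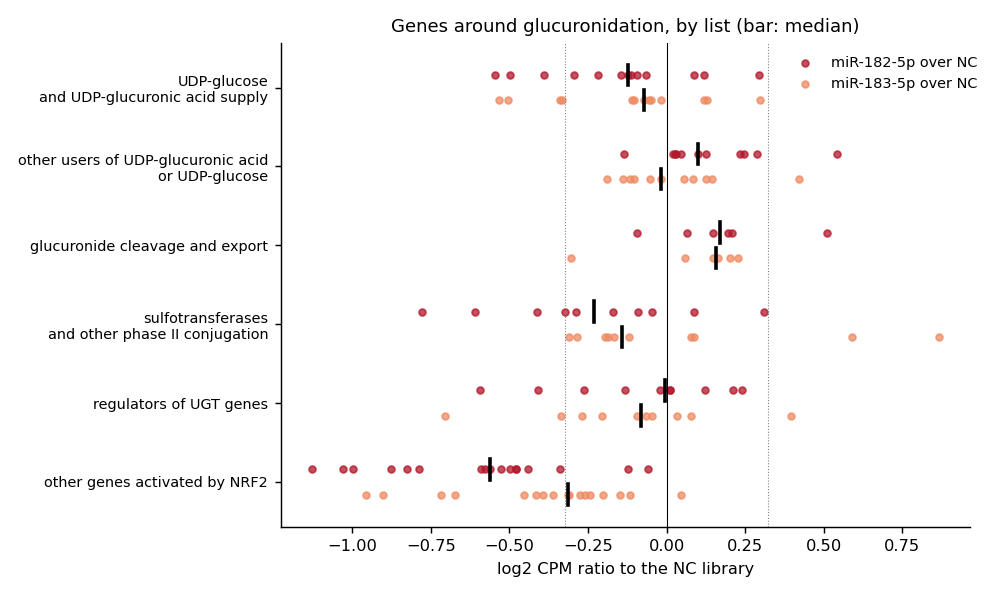
Log2 CPM ratio to the NC library of each measured gene in 6 lists around glucuronidation; for each list the upper row is miR-182-5p over NC and the lower row miR-183-5p over NC, black bars are medians and dotted lines the call thresholds. The NRF2 list has medians of -0.56 and -0.31, and the medians of the other 5 lists lie between -0.23 and 0.17.

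The aryl hydrocarbon receptor is the other known activator of UGT1A6, and of the 5 genes it activates that were listed, 2 were measured. TIPARP had 84.0 CPM with miR-182-5p, 97.8 with miR-183-5p and 121 with NC, and CYP1B1, a cytochrome P450 enzyme, had 30.03 CPM with miR-182-5p, 33.8 with miR-183-5p and 45.1 with NC. Both were called lower with miR-182-5p, and CYP1B1 also with miR-183-5p. Of all measured genes, 15.3% were called lower with miR-182-5p and 7.86% with miR-183-5p, and 2 genes are too few to set against those shares. AHRR, the repressor of the receptor, was under the FPKM minimum, at 3.42 times NC (2.49 to 4.76) with miR-182-5p and 0.810 times (0.529 to 1.23) with miR-183-5p. Beside UGT8, galactosylceramide metabolism had 1 other measured gene of 3, the sulfatide-degrading enzyme ARSA, with 11.7 CPM with miR-182-5p, 8.51 with miR-183-5p and 8.17 with NC.

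Promoters were taken from RefSeq (GRCh38.p14) as the 250 bases before a gene's start, and 12 promoters of 8 of the 9 genes were found there. UGT1A10 had no promoter there, so it was not searched and cannot be set beside UGT1A6. Both strands were searched for TGACNNNGC, the core of the element that NRF2 binds, which 10.9% of 35116 promoters of this length hold, and for GCGTG, the core of the element that the aryl hydrocarbon receptor binds, which 32.2% hold. The letters of the NRF2 element were found before the second annotated start of UGT1A6, 98 bases upstream, and in no other promoter of the 8 genes. GCGTG was found before the first start of UGT1A6 and before starts of UGP2, UGT1A8, UGT1A9 and UGT8, and neither motif before UGDH. The promoters of the 2 genes called lower in both comparisons on over 1000 counts in every library are shown, UGDH from the minus strand (chr4:39527440-39527689) and the second start of UGT1A6 from the plus strand (chr2:233692640-233692889). Capitals mark the match to TGACNNNGC.
UGDH: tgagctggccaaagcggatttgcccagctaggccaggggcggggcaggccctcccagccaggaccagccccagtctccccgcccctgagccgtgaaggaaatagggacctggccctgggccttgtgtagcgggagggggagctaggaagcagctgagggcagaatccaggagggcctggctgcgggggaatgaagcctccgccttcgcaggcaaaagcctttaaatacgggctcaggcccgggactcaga
UGT1A6: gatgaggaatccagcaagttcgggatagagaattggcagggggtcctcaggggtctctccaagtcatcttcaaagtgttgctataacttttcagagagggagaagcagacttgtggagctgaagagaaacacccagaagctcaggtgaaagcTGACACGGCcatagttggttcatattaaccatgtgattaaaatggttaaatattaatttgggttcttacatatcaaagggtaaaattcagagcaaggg
The search covers these windows and letters only, and which start the cells use was not tested.

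Marker genes were checked against the labelled cell type. All 5 biliary markers had an FPKM of at least 1 (summed CPM 975 with miR-182-5p, 950 with miR-183-5p and 975 with NC), and 0 of the 4 hepatocyte markers in the table did (summed CPM 1.005 with miR-182-5p, 0.816 with miR-183-5p and 0.666 with NC). EPCAM was the largest biliary marker, at 513 CPM with miR-182-5p, 514 with miR-183-5p and 499 with NC. KRT7 was the smallest, at 6.17, 6.96 and 4.99 CPM in the same order. Of 5 intestinal markers 3 reached an FPKM of 1, with summed CPM of 289 with miR-182-5p, 266 with miR-183-5p and 287 with NC. Among them KRT20 had 92.3, 86.0 and 93.3 CPM and VIL1 had 180, 166 and 180 CPM, while CDX2 and CDH17 were at or near 0. The fibroblast markers summed to 20.2 CPM with miR-182-5p, 12.5 with miR-183-5p and 11.2 with NC, nearly all of it COL1A1, and no immune or endothelial marker reached an FPKM of 1. Mitochondrially encoded genes took 16.7% of counts with miR-182-5p and 16.1% with miR-183-5p, against 13.5% with NC. The part of the COL1A1 difference in the values above was not tested. Scaled to the remaining counts, UGDH was 0.735 times NC with miR-182-5p and 0.726 times with miR-183-5p, and UGT1A6 0.784 and 0.783 times, so both stayed past the threshold.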

How the data were processed

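RNA of 3 QBC-939 libraries, 1 per group, was analysed. Whole-number gene counts were made by the authors and deposited as they are; per the file headers, FPKM values made by the authors stand beside them. Tools named, per the submitters' processing notes, are cutadapt 1.9 and FastQC, and the genome build is named as GRCm38, which is of mouse, while the table's 30923 gene identifiers are all human. Of the rows, 97.3% have an identifier in GENCODE 29, and 99.8% of these overlap the same gene's GRCh38 span. Which aligner, counter, annotation and strand setting were used is not given in the sources used here.

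From the counts, CPM ratios with exact Clopper-Pearson 95% intervals were computed (Python 3.11.15, pandas 2.3.3, SciPy 1.17.1), after a check on simulated data. A count of 0 was set at a floor of 3 counts. Calls were made without a test, at a CPM ratio of 0.8 or its inverse, among genes that reached an FPKM of 1 somewhere. The alternatives were scaling to nuclear counts, by edgeR 4.0.16 TMM factors or DESeq2 1.42.0 size factors (R 4.3.3), FPKM with 1 or 0.1 added, other folds and filters, and other UGT1A rows. Named were all 9 genes, the 3 genes of highest mean FPKM in each list, list genes past 2-fold with a mean of at least 50 counts, and the 5 genes most like UGDH and the 5 most like the UGT1A sum. List genes named for being called were picked with their values in view, and a few list genes are not reported here. The 9 genes and all lists were chosen with earlier results of these data known. Figures were drawn with matplotlib 3.10.9.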

Additional observations from a re-analysis of the deposited data

Results flagged for a closer look

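UGT1A1 lay on opposite sides of the NC library: its CPM ratio was 0.968 with miR-182-5p and 1.05 with miR-183-5p, and this difference was not tested, since there is 1 library per group.

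UGT2B7 also lay on opposite sides, at 1.46 times NC with miR-182-5p and 0.342 times with miR-183-5p, on 39 counts with miR-182-5p, 10 with miR-183-5p and 28 with NC. This difference was not tested either.

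Among UGT1A rows outside the 9 genes, the pseudogene UGT1A13P had 23 counts with miR-182-5p, 20 with miR-183-5p and 6 with NC, which is 4.01 times NC (1.59 to 12.03) and 3.19 times NC (1.24 to 9.71). UGT1A7, an enzyme of the upper gut, had 101 counts with miR-182-5p, 76 with miR-183-5p and 72 with NC, and was 1.47 times NC (1.07 to 2.01) with miR-182-5p. Both rows are within the shared locus.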

How the results depend on the processing

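No paired analysis was possible because each group has 1 library, and for the same reason no replicate could be left out. UGDH and UGT1A6 stayed below 0.8 in both comparisons with NC under every scaling and FPKM setting run, UGDH between 0.678 and 0.735 with miR-182-5p and between 0.704 and 0.726 with miR-183-5p. The UGT1A sum was 0.901 times NC with miR-182-5p. It was 0.937 on nuclear counts, 0.865 with TMM, 0.864 with size factors, 0.956 with 1 added to the FPKM and 0.955 with 0.1 added. With miR-183-5p it was 0.919, against 0.947 on nuclear counts and 0.976 with either FPKM setting. Its direction reversed without UGT1A6, to 1.11 with miR-182-5p and 1.14 with miR-183-5p, since that row holds the most counts, and without UGT1A10, an alternative chosen after seeing the data, it was 0.782 and 0.801. Between the microRNAs it was 0.981, with 0.935 under TMM and 0.936 under size factors. With 1 added to the FPKM, 1 of all 9 genes instead of 2 was past the higher threshold with miR-182-5p, and 0 instead of 2 between the microRNAs, as adding 1 draws low rows such as UGT2B7 and UGT1A8 towards a ratio of 1. Over all genes, 2065 were called lower and 2811 higher with miR-182-5p. There were 1341 lower with 1 added to the FPKM, 474 lower and 1384 higher at 1.5-fold, 148 and 519 at 2-fold, and 6583 and 11263 with no filter. With miR-183-5p, 1057 lower and 1328 higher became 528 and 776 with 1 added to the FPKM, 385 and 605 at 1.5-fold, 159 and 275 at 2-fold, and 6275 and 8203 with no filter. Between the microRNAs, 898 lower and 1962 higher became 544 and 1146 with 1 added to the FPKM, 314 and 799 at 1.5-fold, 149 and 301 at 2-fold, and 5927 and 9602 with no filter, and the number lower was 1448 with TMM and 1432 with size factors. UGT1A9 with 0.1 added to the FPKM was 2.61 with miR-182-5p and 6.52 with miR-183-5p. Of single genes' ratios, 44 moved by more than their counting interval and 86 did not; no called ratio changed sign, and UGT1A1 with miR-182-5p crossed 1 on nuclear counts, at 1.006. UGT1A8, UGT1A9 and UGT2B7 rest on at most 284 counts a library, so their levels are poorly set at this depth, and with 1 library per group differences between cultures cannot be told apart from those between conditions.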
